A study of Homo sapiens with 5 samples.

Results

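B3GALT5-knockout and wild-type human embryonic stem cells, both of the line H9 and both grown in 2iLAF, were compared gene by gene. The 2iLAF medium holds kinase inhibitors together with the cytokine LIF and the growth factors activin A and FGF2. The knockout cells carry the genotype B3GALT5-/- (KO 2iLAF) and the control cells are wild type (WT 2iLAF). Genes at 1 TPM or more in either library entered the comparison, which kept 15142 of the 26506 genes of the table. TPM is a transcript level scaled for gene length and to the same total in each library. The difference of a gene is given as log2((KO TPM + 1)/(WT TPM + 1)), a scale that understates the ratio of low genes. A gene is called higher or lower where that value is at least 1 in size, a 2-fold difference on the same scale.

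The series holds 5 libraries, 1 each of WT and KO cells in basal medium, of WT and KO cells in 2iLAF, and of WT cells in 5iLAF, a medium with further inhibitors. With 1 library per group no difference has a replicate check, no test was possible, and a difference between these libraries cannot be told apart from one between cultures. The labels record KO 2iLAF as naive, WT 2iLAF as primed-naive, WT 5iLAF as naive and both basal libraries as primed. They do not say whether the knockout line is 1 clone or which part of the gene was edited. Read depth is unknown.

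B3GALT5 is a galactosyltransferase that adds galactose in beta-1,3 linkage and makes the globo-series antigen SSEA-3, a surface marker of human pluripotent cells. Primed human embryonic stem cells resemble the epiblast after implantation and depend on activin and FGF signals. Naive cells are a counterpart of the epiblast before implantation and are held by media that inhibit kinases of the ERK and other pathways.

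The pluripotency markers used to check the cell type were present in both libraries. POU5F1, the OCT4 transcription factor, was at 1601 TPM in KO 2iLAF and 1099 in WT 2iLAF, beside 3350 in WT basal, 3098 in KO basal and 1944 in WT 5iLAF. The other 8 of these markers (SOX2, LIN28A, SALL4, DPPA4, L1TD1, TDGF1, DNMT3B and ZFP42) were at or above 48.9 TPM in both 2iLAF libraries, and SALL4 in the knockout was the lowest. Across genes the knockout was nearest to WT 5iLAF, with a Pearson correlation of log2(TPM + 1) of 0.968. It correlated with KO basal at 0.845, with WT basal at 0.847 and with WT 2iLAF, its own medium, at 0.843. These values are across genes, which are not independent replicates.

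In KO 2iLAF 2623 genes were higher (17.3% of those compared) and 1706 were lower (11.3%), so that 28.6% passed the 2-fold rule and 10813 genes did not. The median difference over the 15142 genes was 0.11, with quartiles of -0.42 and 0.69. These shares and that median are the background against which the counts of each gene group are set. Group sizes and medians below take in every listed gene that is in the table. Members under 1 TPM in both libraries cannot be called, so they lower a group's shares and dilute its median. Members under 1 TPM in WT 2iLAF alone enter only through KO 2iLAF and cannot be called lower. Likewise, those under 1 TPM in KO 2iLAF alone cannot be called higher. For groups near 0 in 1 library, the direction of the calls was therefore fixed by the filter. Differences of 8-fold and more were less evenly divided, with 404 genes higher by at least 3 on the log2 scale and 127 lower. In bulk RNA, fewer cells that make a transcript and less of it per cell cannot be told apart. As a description of the edges, 88 genes had 1 to 1.05 TPM in their higher library and 89 had 0.95 to 1, while 273 genes were within 0.05 above the 2-fold rule and 255 within 0.05 below it.

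**Figure D1:**
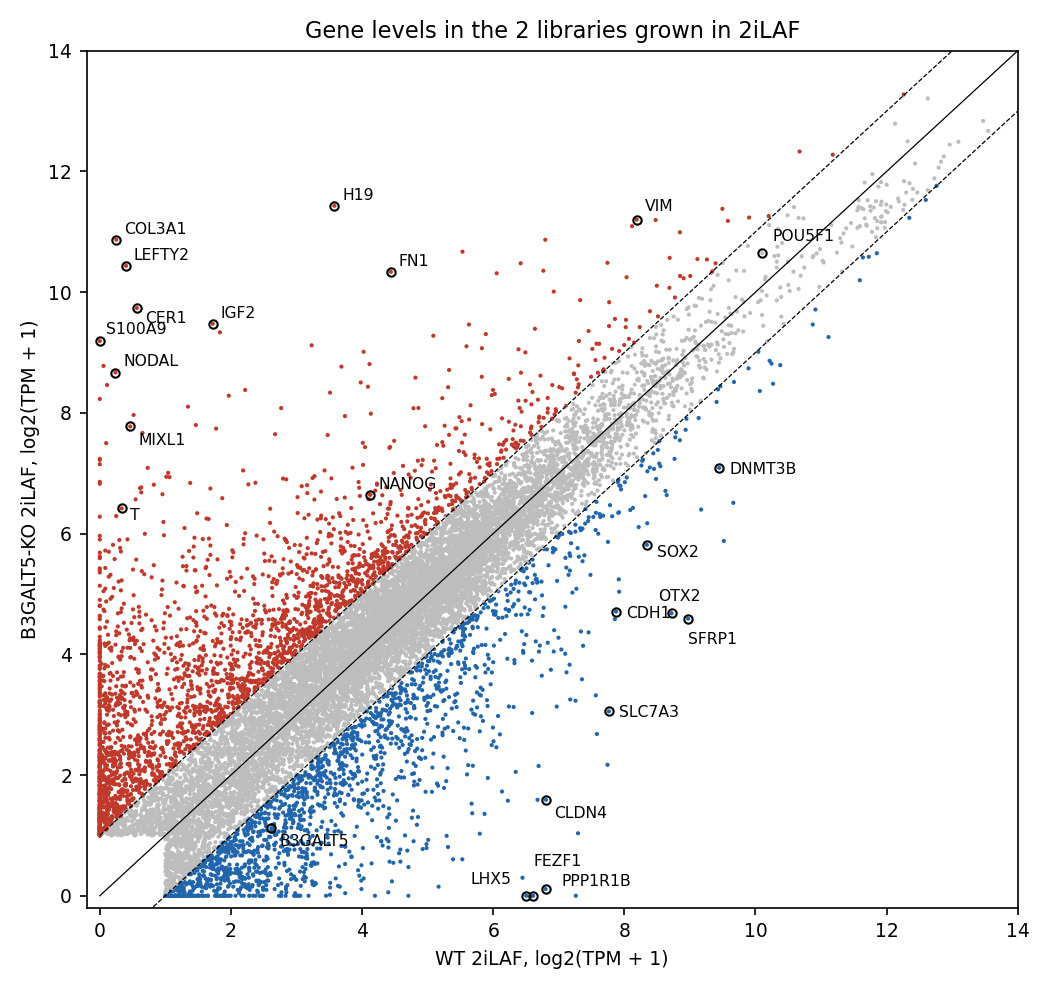
Level of each of the 15142 genes in WT 2iLAF (horizontal) and KO 2iLAF (vertical), as log2(TPM + 1). Red points are higher and blue points lower by the 2-fold rule (dashed lines), grey points are neither, and the solid line marks equal levels. Named genes are circled. COL3A1, LEFTY2 and NODAL sit at the upper left, and LHX5 and FEZF1 on the floor of the plot.

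The share of called genes did not rest on low levels alone. Of 1851 genes reaching 100 TPM in either library, 15.3% were higher and 8.32% lower. Of 5372 genes whose higher library lay between 1 and 10 TPM, 20.5% were higher and 15.6% lower. There were 63 genes at 10 TPM or more in KO 2iLAF and listed at 0 in WT 2iLAF. The reverse held for 5 genes (LHX5, LHX5-AS1, FEZF1, FEZF1-AS1 and CUZD1, named after their values were seen).

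Transcripts of blood cells stood in KO 2iLAF beside all other differences. Of 25 granulocyte genes 24 were higher and 0 lower (median 3.57). Their summed level was 1595 TPM in KO 2iLAF, 9.20 in WT 2iLAF, 38.2 in WT 5iLAF, 14.7 in KO basal and 21.3 in WT basal. S100A9, a calcium-binding protein of neutrophils, was at 583 TPM in KO 2iLAF, at 0.47 in WT 5iLAF and listed at 0 in the other 3 libraries. S100A8, its partner, was at 299 TPM and listed at 0 in all 4 others. In WT 2iLAF 15 of the 25 granulocyte genes were listed at 0, against none in KO 2iLAF. The defensins DEFA1 and DEFA3 (141 and 150.1 TPM) and CSF3R, the receptor for the granulocyte growth factor G-CSF (18.6 TPM), were among those listed at 0 in WT 2iLAF. Defensin genes are near-identical, so that their single values are uncertain.

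Genes of other blood lineages were present at lower levels. Adult, fetal and embryonic globin genes summed to 220.8 TPM in KO 2iLAF and 0.17 in WT 2iLAF, to 12.1 in WT 5iLAF, and to 3.12 and 222 in KO and WT basal. HBB, adult beta-globin, was at 112.5 TPM in KO 2iLAF and listed at 0 in WT 2iLAF. Of 19 erythroid genes 8 were higher and 0 lower (median 0.73), of 16 monocyte genes 7 and 0 (median 0.86), and of 15 lymphocyte genes 8 and 0 (median 1.16). In each of these groups only 9 genes reached 1 TPM in either 2iLAF library. Platelet genes had 1 higher and 1 lower of 10, of which 3 reached 1 TPM. All 85 blood cell genes together summed to 2000 TPM in KO 2iLAF and 75.2 in WT 2iLAF. With these genes left out and TPM computed again, 2580 genes were higher and 1695 lower. Endothelial genes had 2 higher and 2 lower of 13, with a median of 0.28, and 5 of the 13 reached 1 TPM.

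Fibroblast and feeder cell markers also stood apart. Of 18 genes 15 were higher and 0 lower (median 3.89), and their sum was 6425 TPM in KO 2iLAF, 244 in WT 2iLAF, 2227 in WT 5iLAF, 898 in KO basal and 829 in WT basal. DCN, decorin, was at 48.3 TPM and DPT, dermatopontin, at 1.57, and both were listed at 0 in WT 2iLAF. THY1, a surface protein of fibroblasts and of primed stem cells, was at 37.6 TPM in KO 2iLAF and 65.7 in WT 2iLAF. The part of blood, fibroblast or feeder cells in the other differences was not tested. Without the fibroblast, collagen, matrix and smooth muscle lists 2633 genes were higher and 1661 lower.

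The targeted gene, B3GALT5, was at 1.17 TPM in KO 2iLAF and 5.13 in WT 2iLAF, a log2 difference of -1.50. On a pseudocount of 5 TPM the difference was -0.72 and did not pass the 2-fold rule. The other libraries had 5.98 TPM in KO basal, 9.31 in WT basal and 2.08 in WT 5iLAF. The transcript was thus present in both knockout libraries, and KO 2iLAF was the lowest of the 5. Since the edited part of the gene is not given, the transcript does not check the knockout.

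Enzymes of the globo-series differed in both directions around an even median. Of 9 genes, B3GALT5 included, 2 were higher and 4 lower (median -0.01), and B3GALT5 is among the lower ones. A4GALT, which makes Gb3, was at 18.7 TPM in KO 2iLAF and 18.8 in WT 2iLAF. B3GALNT1, which makes Gb4, was at 8.28 and 5.68 TPM. Both of these steps, which come before B3GALT5, were within 2-fold. ST3GAL1 and ST3GAL2, sialyltransferases that act on terminal galactose, were higher, at 18.4 against 1.13 TPM and at 39.6 against 15.5 TPM. Enzymes that cap the same chains otherwise were lower, namely ST6GALNAC6 (12.5 against 45.1 TPM) and the fucosyltransferases FUT1 (1.22 against 4.18 TPM) and FUT2 (0.76 against 5.79 TPM).

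The branches beside the globo-series held called genes in both directions, where 17.3% of all genes compared were higher and 11.3% lower. With so few genes per branch, these counts are not read as a result about the enzymes. UGCG, which makes glucosylceramide as the entry to the globo-series, ganglio-series, lacto-series and neolacto-series, was higher at 31.8 against 10.2 TPM. Of 19 ceramide and first sugar genes 4 were higher and 2 lower. Their median of 0.06 turned to -0.03 on rescaling the libraries. UGT8 and GAL3ST1, which lead to galactosylceramide and sulfatide, were the lower ones, at 1.85 against 15.4 TPM and 1.39 against 7.64 TPM. ST3GAL5, the GM3 synthase that opens the ganglio-series, was at 8.21 TPM in KO 2iLAF, 1.52 in WT 2iLAF and 6.57 in WT 5iLAF. It was the 1 higher gene of 9 in that series, with 2 lower and a median of 0.25. Among 20 lacto-series and neolacto-series genes 1 was higher and 2 lower (median 0.21). The higher one was B4GALT1, a galactosyltransferase, at 76.2 against 10.8 TPM, and B3GALT1, a relative of B3GALT5, was lower at 0.69 against 6.23 TPM.

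Core pluripotency genes differed in both directions. Of 17 genes 5 were higher and 6 lower (median -0.11). Some genes are on several lists, such as GDF3 (core, naive and NODAL), CER1 (NODAL and endoderm) and COL3A1 (collagen and fibroblast). NANOG was at 99.0 TPM in KO 2iLAF, 16.5 in WT 2iLAF, 124 in WT 5iLAF, 154 in KO basal and 171 in WT basal, so that WT 2iLAF was the lowest library. GDF3, a NODAL-related ligand, was at 106 against 2.22 TPM, TDGF1, the NODAL co-receptor also known as Cripto, at 239 against 69.2 TPM, and ESRG, a noncoding RNA of pluripotent cells, at 1496 against 553 TPM. SOX2, the partner of OCT4 and a factor of neural progenitors, went the other way. It was at 55.3 TPM in KO 2iLAF, 324 in WT 2iLAF, 65.6 in WT 5iLAF, 190 in KO basal and 161 in WT basal. LIN28A, an RNA-binding repressor of let-7, was at 357 against 1233 TPM and SALL4, a zinc finger factor, at 48.9 against 167 TPM. POU5F1, L1TD1, DPPA4 and ZFP42 were within 2-fold, with log2 differences of 0.54, 0.37, -0.09 and -0.11.

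Naive markers were partly higher and partly undetected. Of 32 genes 10 were higher, 2 lower and 15 under 1 TPM in both 2iLAF libraries, and the median over all 32 was 0.00. KLF2, a factor of naive cells, was at 33.0 TPM in KO 2iLAF and 0.06 in WT 2iLAF, with 14.8 in WT 5iLAF and at most 0.14 in basal medium. DNMT3L, a cofactor of DNA methyltransferases, was at 51.4 against 1.57 TPM, FGF4 at 33.9 against 1.43 TPM and KLF5 at 16.1 against 1.90 TPM. Several genes that mark human naive cells did not share this. Both 2iLAF libraries list KLF17, DPPA5 and ARGFX at 0. TFCP2L1 was at 1.38 against 2.15 TPM. DPPA3, a maternal factor, was higher by little more than the 2-fold rule, at 3.21 against 1.09 TPM. KLF4 was lower, at 7.57 against 20.5 TPM, although WT basal held 1.40 TPM.

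Primed markers were mostly lower in KO 2iLAF. Of 30 genes 18 were lower and 2 higher (median -1.31). SLC7A3, a cationic amino acid transporter, was at 7.31 TPM in KO 2iLAF, 216 in WT 2iLAF, 6.62 in WT 5iLAF, 260.2 in KO basal and 148 in WT basal. OTX2, a homeobox factor of the primed epiblast and forebrain, was at 24.6 TPM in KO 2iLAF and 421 in WT 2iLAF, while basal medium held 12.6 (KO) and 9.67 (WT). DNMT3B, a de novo DNA methyltransferase, was at 135 against 697 TPM, TCF7L1, a repressor of WNT targets, at 15.1 against 136 TPM, and USP44, a deubiquitinase, at 5.89 against 46.0 TPM. ZIC2 and ZIC5, zinc finger factors, were at 23.8 against 107 TPM and 2.71 against 26.8 TPM. The 2 higher members were CDH2, N-cadherin, at 187 against 72.5 TPM, and DUSP6, an ERK phosphatase, at 4.66 against 1.24 TPM. DUSP6 was at 303 and 370 TPM in WT and KO basal, so that both 2iLAF libraries were far below basal.

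NODAL signalling genes held several of the largest differences. NODAL is a TGF-beta ligand that patterns the embryo, acts through activin receptors and SMAD2, and induces its own inhibitors LEFTY1, LEFTY2 and CER1. NODAL itself was at 406 TPM in KO 2iLAF, 0.18 in WT 2iLAF, 586 in WT 5iLAF, 15.7 in KO basal and 21.7 in WT basal. LEFTY2 was at 1385 TPM in KO 2iLAF and 0.32 in WT 2iLAF, with 1985 in WT 5iLAF and 13.8 and 13.2 in KO and WT basal. For both genes WT 2iLAF was the lowest library and KO 2iLAF the second highest, with log2 differences of 8.43 and 10.04. CER1, the third inhibitor, was at 852 against 0.48 TPM and LEFTY1 at 202 against 0.57 TPM.

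The remaining genes of the pathway followed by role. Of 25 genes in all 15 were higher and 2 lower (median 1.49). Among ligands, INHBA, an activin subunit, was at 17.7 against 0.48 TPM and INHBB at 3.19 against 0.12 TPM, while GDF1 was at 0.46 against 1.72 TPM. Receptors did not share the direction, with ACVR2B lower at 8.13 against 21.3 TPM and ACVR1B at 22.5 against 38.7 TPM. The signal transducers SMAD2 and SMAD4 were within 2-fold, SMAD3 was at 32.2 against 9.48 TPM, and FOXH1, the DNA-binding partner of SMAD2, was lower at 60.1 against 126 TPM. SKIL, a feedback inhibitor in the nucleus, was at 23.1 against 6.03 TPM.

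Of 24 WNT target genes 18 were higher in the knockout and 0 lower (median 2.19). T, the brachyury factor that is both a WNT target and a primitive streak factor, was at 84.5 TPM in KO 2iLAF, 0.26 in WT 2iLAF, 118 in WT 5iLAF, 0.09 in KO basal and 0.21 in WT basal. SP5, a transcription factor that marks WNT activity, was at 122 against 1.02 TPM, LEF1, which carries beta-catenin to DNA, at 34.1 against 1.42 TPM, and AXIN2, a feedback inhibitor, at 66.2 against 20.8 TPM. CDX1 was at 58.8 TPM and listed at 0 in WT 2iLAF. CCND1, cyclin D1, did not share this, at 112 against 147 TPM.

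Ligands, receptors and antagonists of WNT were divided, with 14 of 36 higher, 8 lower and a median of 0.20. The ligands WNT3 and WNT8A were at 42.1 against 2.06 TPM and 58.9 against 0.34 TPM. RSPO2, which amplifies WNT signals, was at 107 TPM in KO 2iLAF and 0.53 in WT 2iLAF, and at 6.45 in WT 5iLAF and at most 0.24 in basal medium. FZD5, a frizzled receptor, was lower, at 15.5 against 120.4 TPM. SFRP1, a secreted antagonist, was at 23.1 TPM in KO 2iLAF, 501 in WT 2iLAF, 26.7 in WT 5iLAF, 345 in KO basal and 286 in WT basal.

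FGF and ERK feedback genes were mostly higher in the knockout, at levels that stood differently to basal medium. Of 20 genes 12 were higher and 0 lower (median 1.36). SPRY4, which inhibits receptor tyrosine kinase signalling, was at 7.82 TPM in KO 2iLAF and 1.91 in WT 2iLAF, beside 98.5 and 97.0 in KO and WT basal. ETV4 and ETV5, transcription factors downstream of ERK, were at 18.4 against 6.30 TPM and 3.17 against 0.61 TPM. Basal medium held over 5 times more of both than KO 2iLAF, namely 156 (KO) and 190.4 (WT) TPM of ETV4 and 48.7 and 42.6 of ETV5. Other members were above both basal libraries, among them IER3, an early response gene, at 101 against 7.97 TPM (59.4 and 59.0 TPM in KO and WT basal). FOS, another early response gene, was at 21.6 against 3.41 TPM (3.18 and 9.64 TPM in KO and WT basal). FGF ligands and receptors had 8 of 19 higher and 4 lower (median 0.03). FGF8 and FGF17, ligands of the gastrulating embryo, were at 79.9 against 1.80 TPM and 43.0 against 1.41 TPM, whereas the receptors FGFR1 and FGFR3 were lower, at 138 against 374 TPM and 38.8 against 178 TPM.

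Genes of the LIF pathway, through which LIF acts on JAK kinases and STAT3, were higher in 8 of 14 cases and lower in 0 (median 1.23). IL6ST, the shared gp130 receptor chain, was at 60.1 TPM in KO 2iLAF, 1.72 in WT 2iLAF, 31.9 in WT 5iLAF, 2.68 in KO basal and 2.96 in WT basal. LIFR, the ligand-specific chain, was at 10.7 against 2.56 TPM, and SOCS3, a feedback inhibitor, at 69.5 against 27.1 TPM. STAT3 was within 2-fold, at 92.1 against 74.4 TPM. IL6R, the receptor chain for interleukin 6, was at 20.1 against 0.55 TPM.

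BMP ligands and targets had 12 of 22 higher and 4 lower (median 1.16). The ligands BMP2 and BMP4 were at 26.0 against 2.92 TPM and 84.3 against 20.3 TPM, and the pseudoreceptor BAMBI at 180 against 15.1 TPM. BMP targets differed in both directions. MSX2, a homeobox target, was higher at 7.0 against 0.98 TPM. Of the ID genes, direct BMP targets that block bHLH factors, 3 were lower and ID2 was not called (89.7 against 133 TPM). ID3 was at 36.9 against 240.4 TPM, ID4 at 0.90 against 31.2 TPM and ID1 at 139 against 306 TPM. Retinoic acid genes had 2 of 16 higher and 5 lower (median 0.12), with CYP26A1, which degrades retinoic acid, at 71.1 against 325 TPM. YAP target genes had 5 of 16 higher and 0 lower (median 0.54). Among them F3, tissue factor, was at 63.3 against 3.65 TPM and CTGF at 126 against 117 TPM.

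**Figure D2:**
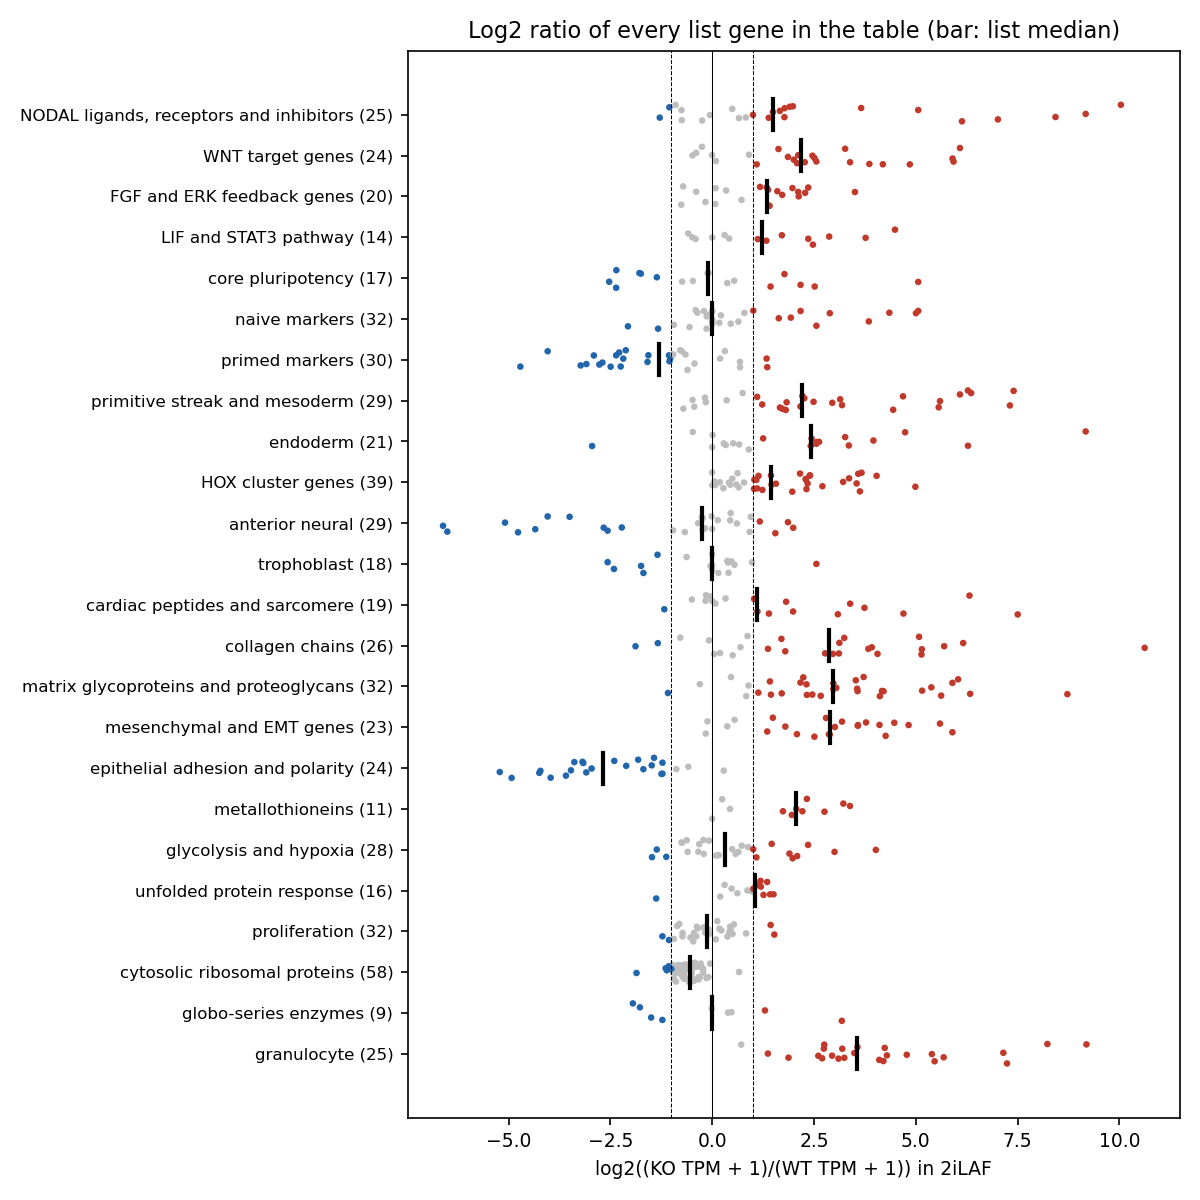
Log2((KO TPM + 1)/(WT TPM + 1)) in 2iLAF of every gene of 24 lists that is in the table, 1 point per gene with the number in brackets, red for higher and blue for lower by the 2-fold rule (dashed lines). Black bars are list medians, which run from -2.68 for epithelial adhesion and polarity to 3.57 for granulocyte genes. Vertical scatter within a row only separates the points.

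Most genes of the primitive streak and mesoderm were higher in KO 2iLAF. Of 29 genes 22 were higher and 0 lower (median 2.21), and their levels summed to 946 TPM in KO 2iLAF, 38.2 in WT 2iLAF, 814 in WT 5iLAF, 77.6 in KO basal and 65.9 in WT basal. MIXL1, a homeobox factor of the streak, was at 218 TPM in KO 2iLAF, 0.38 in WT 2iLAF, 292 in WT 5iLAF, 0.90 in KO basal and 2.59 in WT basal. EOMES, a T-box factor of the streak and endoderm, was at 51.0 against 0.10 TPM and APLNR, the apelin receptor of mesoderm, at 180 against 0.07 TPM. HAND1, a factor of lateral mesoderm and extraembryonic tissue, was at 135 against 0.66 TPM. HAND2 was at 20.8 TPM in KO 2iLAF, 0.51 in WT 5iLAF and listed at 0 in the other 3 libraries. MEOX1, of the somites, was at 25.8 against 0.04 TPM, with 1.83 in WT 5iLAF.

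Endoderm genes were higher in 12 of 21 cases and lower in 1 (median 2.42). GATA4, a factor of endoderm and heart, was at 76.7 TPM in KO 2iLAF and listed at 0 in WT 2iLAF, with 44.2 in WT 5iLAF and at most 0.06 in basal medium. GATA6 was at 32.3 against 0.25 TPM, and SOX17 was at 14.6 TPM and listed at 0 in WT 2iLAF. FOXA2, a factor of definitive endoderm, was at 4.91 TPM and likewise listed at 0. The 1 lower member was FOXA3, at 3.36 against 32.7 TPM. CER1, given above, is also on this list.

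HOX genes set position along the body axis and are silent in pluripotent cells. Of 39 genes 26 were higher, 0 were lower and the other 13 were under 1 TPM in both libraries (median 1.45). Their levels summed to 165 TPM in KO 2iLAF, 0.77 in WT 2iLAF, 100.02 in WT 5iLAF, 0.99 in KO basal and 0.68 in WT basal. Posterior members were included, with HOXA10 at 11.5 against 0.04 TPM and HOXA13 at 5.79 against 0.04 TPM, where WT 5iLAF held 1.42 and 0.87 TPM. In WT 2iLAF 30 of the 39 were listed at 0 and none was above 0.21 TPM. The 26 thus passed the 1 TPM filter only through KO 2iLAF, and no gene of the group could be called lower.

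Heart and smooth muscle genes were higher as well. Of 19 cardiac genes 11 were higher and 1 lower (median 1.11). MYL4, an atrial myosin light chain, was at 645 against 2.56 TPM and NPPB, natriuretic peptide B, at 311 against 2.91 TPM, with 840 TPM in WT 5iLAF. ACTC1, cardiac actin, was at 1030 TPM in KO 2iLAF, 120.4 in WT 2iLAF, 328 in WT 5iLAF, 6.83 in KO basal and 5.60 in WT basal, so that both 2iLAF libraries were above basal. Of 16 smooth muscle genes 9 were higher and 1 lower (median 1.16), among them ACTA2, smooth muscle actin, at 555 against 8.39 TPM and TAGLN, transgelin, at 2037 against 460 TPM.

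Several anterior neural genes were present in WT 2iLAF and near 0 in KO 2iLAF. Of 29 genes 10 were lower, 4 higher and 13 under 1 TPM in both libraries, and the median over all 29 was -0.24. FEZF1, a forebrain zinc finger factor, was listed at 0 in KO 2iLAF and was at 96.6 TPM in WT 2iLAF, against 0.06 in WT 5iLAF, 1.72 in KO basal and 1.63 in WT basal. LHX5, a LIM homeobox factor of the forebrain, was at 89.7 TPM in WT 2iLAF and at most 0.04 in the other 4 libraries. Both have an antisense partner with the same order (LHX5-AS1 at 152 TPM and FEZF1-AS1 at 17.3 TPM in WT 2iLAF, both listed at 0 in KO 2iLAF), and the strand setting of the counting is not stated. SIX3, of the eye field and forebrain, was at 0.04 against 20.1 TPM, HESX1, of the anterior forebrain and pituitary, at 1.04 against 54.5 TPM and SOX21 at 2.01 against 101 TPM. Among the 4 higher genes was NES, the filament protein nestin, at 355 against 157 TPM.

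Neural crest genes had 6 of 15 higher and 6 lower (median -0.78). SNAI2, which drives cells out of epithelia, was at 47.3 TPM and listed at 0 in WT 2iLAF, whereas NGFR, a neurotrophin receptor, was at 0.78 against 18.9 TPM and SOX10 at 0.41 against 8.37 TPM. Amnion genes had 8 of 13 higher and 2 lower (median 1.75), led by HAND1 and by ANXA1, an annexin, at 322 against 10.4 TPM. Trophoblast genes had 1 of 18 higher and 5 lower (median 0.00). Only 9 of the 18 reached 1 TPM in either 2iLAF library, and the median of those was -1.34. TFAP2A, a factor of trophoblast, amnion and neural crest, was at 2.09 against 17.3 TPM. Germ cell genes had 3 of 14 higher and 4 lower (median 0.12), with DAZL, an RNA-binding protein of germ cells, listed at 0 in KO 2iLAF and at 9.93 TPM in WT 2iLAF.

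**Figure D3:**
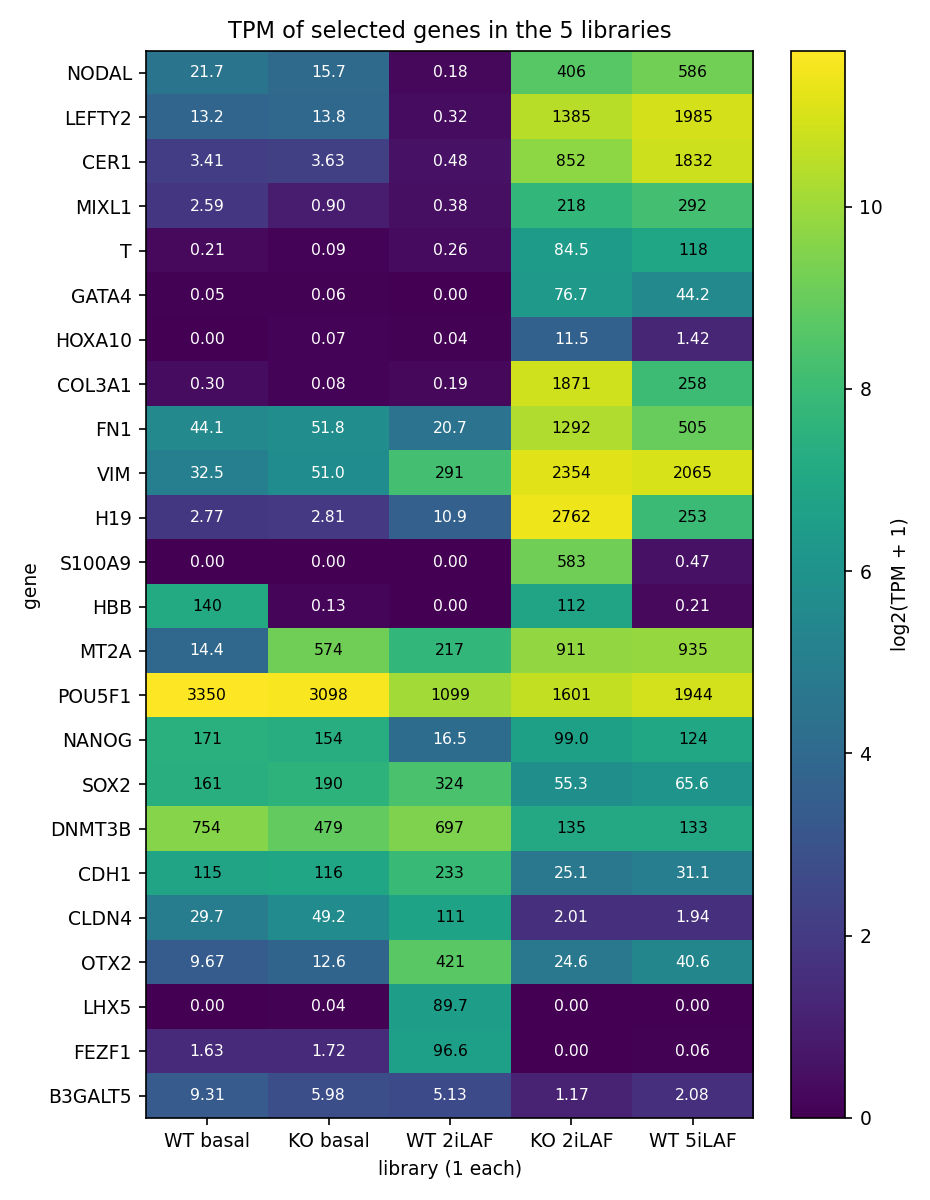
TPM of 24 genes named in the text in each of the 5 libraries, printed in the cells and coloured by log2(TPM + 1). In the first 10 rows, NODAL to VIM, KO 2iLAF and WT 5iLAF are both above WT 2iLAF. In the rows of SOX2, CDH1 and CLDN4 both are below it, and S100A9 is high in KO 2iLAF only.

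Extracellular matrix genes were mostly higher in the knockout. Collagens form the fibrils and sheets of the matrix. Of 26 chains 17 were higher and 2 lower (median 2.87), and they summed to 8854 TPM in KO 2iLAF, 762 in WT 2iLAF, 4055 in WT 5iLAF, 743 in KO basal and 703 in WT basal. COL3A1, a fibrillar chain, had the highest log2 difference of all genes at 10 TPM or more, at 1871 TPM in KO 2iLAF, 0.19 in WT 2iLAF, 258 in WT 5iLAF, 0.08 in KO basal and 0.30 in WT basal. COL1A1 and COL1A2, which together form type I collagen, were at 1630 against 45.3 TPM and 1426 against 84.6 TPM. COL4A1, of basement membranes, was at 705 against 48.5 TPM. The lower chains were COL13A1 (5.73 against 23.8 TPM) and COL9A2 (5.05 against 14.3 TPM).

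Of 32 matrix glycoproteins, proteoglycans and their enzymes 27 were higher and 1 lower (median 2.98). LUM, the collagen-binding proteoglycan lumican, was at 438 TPM in KO 2iLAF, 0.04 in WT 2iLAF, 18.0 in WT 5iLAF, 0.04 in KO basal and 0.16 in WT basal. FN1, fibronectin, was at 1292 against 20.7 TPM, SPARC at 2183 against 277 TPM and LOX, which crosslinks collagen, at 77.3 against 0.19 TPM. The 1 lower gene was ELN, elastin, at 0.96 against 3.16 TPM. Integrins and laminins, the receptors and basement membrane partners of these proteins, had 14 of 26 higher and 2 lower (median 1.13). ITGA11, a receptor for fibrillar collagen, was at 115 TPM and listed at 0 in WT 2iLAF, and ITGB1, the common beta chain, was at 584 against 157 TPM. The lower ones were ITGA7 (6.62 against 36.6 TPM) and ITGB4 (0.74 against 3.34 TPM).

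Mesenchymal genes were higher and epithelial genes lower in the same library. Of 23 mesenchymal genes 19 were higher and 0 lower (median 2.89), and of 24 epithelial genes 0 were higher and 21 lower (median -2.68). VIM, the filament protein vimentin, was at 2354 TPM in KO 2iLAF, 291 in WT 2iLAF, 2065 in WT 5iLAF, 51.0 in KO basal and 32.5 in WT basal. ZEB2 and ZEB1, repressors of epithelial genes, were at 27.6 against 0.29 TPM and 8.03 against 0.22 TPM, while SNAI1, a related repressor, was at 15.8 against 17.8 TPM. CDH1, E-cadherin, was at 25.1 TPM in KO 2iLAF, 233 in WT 2iLAF, 31.1 in WT 5iLAF, 116 in KO basal and 115 in WT basal. CDH1 was thus lowest in KO 2iLAF and WT 5iLAF and highest in WT 2iLAF.

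Other epithelial genes were lower too. CLDN4, a tight junction protein, was at 2.01 against 111 TPM, CLDN7 at 8.99 against 188 TPM and EPCAM, an adhesion molecule, at 68.0 against 297 TPM. GRHL2, a factor that maintains epithelia, was at 0.18 against 20.9 TPM and ESRP1, an epithelial splicing factor, at 7.74 against 78.4 TPM. RAB25, a vesicle GTPase of epithelia, was at 3.03 against 47.5 TPM, and AP1M2, an epithelial sorting adaptor, at 19.6 against 174 TPM. The 24 genes had a median transcript GC of 57.4%, and their median after centring within 5 equal groups of GC (described at the end) was -2.42. Simple epithelial keratins did not follow, with KRT8 and KRT18 higher at 2321 against 764 TPM and 1517 against 412 TPM, and KRT7 lower.

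ZEB and SNAI repressors bind the E-box CAGGTG, so the promoters of the epithelial genes were read from RefSeq. Of the 24 genes 13 had an entry and 7 of them held CAGGTG on either strand within the 250 bases before a start (53.8%, against 20.6% of 27305 genes and 17.5% of 35116 starts). Each sequence runs 5′ to 3′ along the gene in GRCh38.p14, ends at the base before the start, and has the E-box in capitals as CAGGTG or its complement CACCTG. RAB25 and AP1M2 are shown because both were lower and differ in how many they hold (1 and 3). AP1M2 is among the 0.568% of genes with 3 or more at a start. RAB25 lies on the plus strand at chr1:156060910-156061159 and AP1M2 on the minus strand at chr19:10587313-10587562.
RAB25: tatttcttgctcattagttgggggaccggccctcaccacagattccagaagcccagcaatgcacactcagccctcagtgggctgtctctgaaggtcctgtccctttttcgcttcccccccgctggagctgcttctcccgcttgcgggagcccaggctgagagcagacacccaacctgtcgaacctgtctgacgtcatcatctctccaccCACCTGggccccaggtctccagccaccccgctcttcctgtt
AP1M2: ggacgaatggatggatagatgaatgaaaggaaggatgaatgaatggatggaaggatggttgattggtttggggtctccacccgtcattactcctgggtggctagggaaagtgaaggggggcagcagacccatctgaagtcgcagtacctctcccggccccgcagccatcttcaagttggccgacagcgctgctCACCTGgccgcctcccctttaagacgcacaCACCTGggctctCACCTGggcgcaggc
A match is a description of these letters and not a bound site. Both the list and the E-box were chosen for epithelial genes and their repressors. The contrast with all genes therefore does not bear on these libraries. CLDN4, CLDN3, CLDN6, CLDN10, CGN and LSR, the others with an entry, held none in this window and were lower too. OCLN held 1 and was not called, at 7.47 against 14.6 TPM.

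Imprinted genes, expressed from 1 parental copy, differed in a few large steps. Of 31 genes 6 were higher and 2 lower (median 0.09). H19, a maternally expressed noncoding RNA, was at 2762 TPM in KO 2iLAF, 10.9 in WT 2iLAF, 253 in WT 5iLAF, 2.81 in KO basal and 2.77 in WT basal. IGF2, the paternally expressed growth factor of the same locus, was at 711 TPM in KO 2iLAF, 2.3 in WT 2iLAF, 54.9 in WT 5iLAF, 1.91 in KO basal and 1.23 in WT basal. Both were above every other library in KO 2iLAF. MEG3, a maternally expressed RNA of another locus, was at 274 against 1.54 TPM with 138 in WT 5iLAF, whereas DLK1, its paternally expressed neighbour, was at 12.6 against 25.4 TPM. The lower genes were NNAT, neuronatin, at 14.2 against 73.3 TPM and SNRPN, a splicing protein, at 364 against 815 TPM. Of the IGF axis 5 of 15 genes were higher and 2 lower (median 0.09), with IGFBP7, an IGF-binding matrix protein, at 249 against 0.43 TPM and IGF2BP3 lower at 67.2 against 159 TPM.

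DNA methylation and Polycomb genes were mostly within 2-fold. Of 14 methylation genes 1 was higher (DNMT3L) and 1 lower (DNMT3B), both given above. The median of 0.09 turned to -0.01 under either rescaling of the libraries. DNMT1, the maintenance enzyme, was at 56.8 against 76.4 TPM and TET1, which oxidises methylcytosine, at 18.4 against 13.7 TPM. Of 25 Polycomb genes 1 was higher and 4 lower, and the median of 0.03 turned to -0.06 on rescaling. BMI1, a PRC1 subunit, was at 17.8 TPM in KO 2iLAF, 0.37 in WT 2iLAF, 15.4 in WT 5iLAF, 2.75 in KO basal and 1.37 in WT basal. CBX2 and PHC1, other PRC1 subunits, were lower at 26.6 against 136 TPM and 65.7 against 188 TPM, and EZH2, the histone methyltransferase, was at 47.6 against 34.9 TPM.

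Metallothioneins, small proteins that bind zinc and other metals, were higher in the knockout in this medium as in basal medium. Of 11 genes of the group, which also takes in MTF1 and SLC30A1, 8 were higher and 0 lower (median 2.07). MT2A was at 911 TPM in KO 2iLAF, 217 in WT 2iLAF, 935 in WT 5iLAF, 574 in KO basal and 14.4 in WT basal. MT1H was at 418 against 39.1 TPM and MT1G at 672 against 98.5 TPM. These genes are near-identical, so that single values are uncertain, but the summed level of the group was 3172 TPM in KO 2iLAF, 620 in WT 2iLAF, 2941 in WT 5iLAF, 1466 in KO basal and 139 in WT basal. MTF1, the zinc-sensing factor that induces them, and SLC30A1, a zinc exporter, were within 2-fold (6.19 against 4.31 TPM and 15.1 against 12.6 TPM).

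MTF1 binds the metal response element, searched here as TGCGCNC or TGCACNC on both strands. Of the 11 genes, MTF1 and SLC30A1 included, 5 had a RefSeq promoter and 4 of those held it (80.0%, against 28.5% of 27305 genes). SLC30A1 was among the 4, with 1 copy. Both the list and the element were chosen for the response to metals, so that contrast does not bear on these libraries. A match describes the letters and is not a bound site. MT2A and MT1H are shown because they hold 7 and 8 copies, where 1.94% of genes have 3 or more at a start. Capitals mark each copy or its complement. Both lie on the plus strand of GRCh38.p14, MT2A at chr16:56608334-56608583 and MT1H at chr16:56669564-56669813, the 250 bases before the start.
MT2A: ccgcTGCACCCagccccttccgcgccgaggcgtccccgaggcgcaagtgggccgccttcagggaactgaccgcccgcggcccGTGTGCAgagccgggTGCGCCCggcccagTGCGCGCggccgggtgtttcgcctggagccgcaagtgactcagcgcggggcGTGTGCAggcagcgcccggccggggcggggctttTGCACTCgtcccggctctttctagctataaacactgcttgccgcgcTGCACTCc
MT1H: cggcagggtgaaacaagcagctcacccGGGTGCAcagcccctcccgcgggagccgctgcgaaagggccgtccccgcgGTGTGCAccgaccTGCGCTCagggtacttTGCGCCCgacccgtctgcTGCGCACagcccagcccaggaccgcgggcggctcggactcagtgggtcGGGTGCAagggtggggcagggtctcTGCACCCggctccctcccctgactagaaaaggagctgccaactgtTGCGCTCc
The MTF1 promoter held none.

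Genes of the unfolded protein response, which adds chaperones and disposal factors to the endoplasmic reticulum, were higher by small steps. Of 16 genes 9 were higher and 1 lower (median 1.04). HSPA5, the chaperone BiP, was at 685 TPM in KO 2iLAF, 300.3 in WT 2iLAF, 634 in WT 5iLAF, 282 in KO basal and 464 in WT basal. HERPUD1, of the disposal pathway, was at 49.4 against 16.7 TPM and MANF, a secreted factor, at 322 against 152 TPM. HSP90B1 and CALR, chaperones, were near 2-fold, at 1300 against 648 TPM and 1429 against 723 TPM. HYOU1 and DNAJB9, of the same response, were not called (189 against 153 TPM and 15.8 against 13.7 TPM), and the 1 lower gene was DERL3, at 3.11 against 9.66 TPM. This median was 0.94 under either rescaling of the libraries.

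The ER stress response element ERSE, searched on either strand, was present in 6 of the 15 promoters of this list that RefSeq holds (40.0%, against 0.0916% of 27305 genes). Both the list and the element were chosen for this response, so that contrast does not bear on these libraries. A match describes the letters and is not a bound site. HSPA5 and HSP90B1 are shown with the element in capitals, since they hold 1 and 2 copies. HSPA5 lies on the minus strand at chr9:125241344-125241593 and HSP90B1 on the plus strand at chr12:103930160-103930409 of GRCh38.p14.
HSPA5: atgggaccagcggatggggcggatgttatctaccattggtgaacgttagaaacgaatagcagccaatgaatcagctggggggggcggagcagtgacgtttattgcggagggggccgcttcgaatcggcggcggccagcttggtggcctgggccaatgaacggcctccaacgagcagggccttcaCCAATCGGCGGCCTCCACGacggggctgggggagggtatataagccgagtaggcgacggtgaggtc
HSP90B1: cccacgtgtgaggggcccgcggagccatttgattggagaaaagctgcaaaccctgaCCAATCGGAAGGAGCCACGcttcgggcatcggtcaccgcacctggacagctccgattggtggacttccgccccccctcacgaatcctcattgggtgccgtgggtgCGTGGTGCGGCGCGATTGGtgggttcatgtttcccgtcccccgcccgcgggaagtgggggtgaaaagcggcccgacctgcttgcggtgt
HERPUD1, MANF and SEL1L held no match in this window and were higher.

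Stress and metabolic genes of other kinds were called in varying shares. Heat shock genes had 7 of 14 higher and 0 lower (median 0.93), with the small heat shock proteins CRYAB at 37.8 against 0.73 TPM and HSPB1 at 1215 against 261 TPM. ATF4 targets and amino acid transporters had 7 of 26 higher and 1 lower (median 0.12). SLC7A5, a transporter of large neutral amino acids, was at 512 against 88.9 TPM, and its partner SLC3A2 at 533 against 224 TPM, while ASNS, asparagine synthetase, was at 92.3 against 98.9 TPM. Glycolysis and hypoxia genes had 9 of 28 higher and 3 lower (median 0.33). PDK1, a kinase that inhibits pyruvate dehydrogenase, was at 57.0 against 6.23 TPM and LDHA, lactate dehydrogenase, at 775 against 364 TPM. GAPDH went the other way, at 4866 against 7500 TPM. Oxidative phosphorylation genes had 1 of 33 higher and 0 lower (median -0.06), and cholesterol genes 0 of 24 higher and 1 lower (median 0.41).

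Ribosomal protein transcripts were lower as a group by less than 2-fold. Of 58 genes 57 had a negative difference and 5 passed the rule (median -0.56), and their sum was 134800 TPM in KO 2iLAF, 207673 in WT 2iLAF, 154166 in WT 5iLAF, 180848 in KO basal and 167838 in WT basal. They took 13.5% of all TPM in KO 2iLAF and 20.8% in WT 2iLAF. The median was -0.65 after median-ratio scaling. Ribosomal protein genes have pseudogene copies that can share reads. EEF1A1, a translation elongation factor chosen after values were seen, was at 6523 against 11986 TPM.

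Proliferation genes were close to even, with 2 of 32 higher, 2 lower and a median of -0.13. MKI67, the Ki-67 antigen, was at 27.1 against 18.9 TPM, and the lower genes were MCM2 and MCM3, of the replicative helicase, at 80.3 against 189 TPM and 148 against 311 TPM. Cell cycle inhibitors had 6 of 11 higher and 0 lower (median 1.40). CDKN2A was at 33.3 TPM in KO 2iLAF, 0.16 in WT 2iLAF, 12.6 in WT 5iLAF, 0.37 in KO basal and 0.18 in WT basal. CDKN2B, its neighbour on the chromosome, was at 25.3 against 0.05 TPM and CDKN1A, the p53 target p21, at 48.8 against 13.9 TPM. The p53 targets as a group had 4 of 23 higher and 2 lower (median 0.13).

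Antigen presentation and interferon genes had 13 of 26 higher and 1 lower (median 1.00). B2M, the light chain of class I molecules, was at 530 TPM in KO 2iLAF, 82.6 in WT 2iLAF, 145 in WT 5iLAF, 104 in KO basal and 115 in WT basal. IFIT2 and IFIT3, interferon-induced genes, were at 12.6 against 0.05 TPM and 17.9 against 0.42 TPM. ISG15 did not share this, at 81.6 against 94.8 TPM. B2M and the interferon genes are also made by blood cells, whose genes are given above, and their part was not tested. Stem cell surface markers had 5 of 19 higher and 8 lower (median -0.65). CD24, a primed-state antigen, was at 442 against 1330 TPM, KIT, the receptor for stem cell factor, at 3.88 against 28.4 TPM, and SUSD2, a naive-state antigen, was higher at 15.4 against 3.29 TPM.

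Some of the most different genes belong to no list. AQP1, a water channel, was at 352 TPM in KO 2iLAF, 0.08 in WT 2iLAF, 29.4 in WT 5iLAF, 0.66 in KO basal and 0.17 in WT basal. PPP1R1B, an inhibitor of protein phosphatase 1, was at 0.08 against 110.4 TPM and TTYH1, a membrane protein of neural cells, at 0.23 against 86.2 TPM. WFDC2, a secreted epithelial protein, was at 1.05 TPM in KO 2iLAF, 156 in WT 2iLAF, 5.24 in WT 5iLAF, 104 in KO basal and 110 in WT basal. PMEL, a fibril protein of pigment granules, was at 3.50 against 213 TPM and SCNN1A, a subunit of the epithelial sodium channel, at 3.44 against 102 TPM. LAD1, an anchoring filament protein of epithelia, was at 0.75 against 38.7 TPM.

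The same genotypes were also compared in basal medium, with 2 other libraries. There 111 of 14162 genes were higher in the knockout (0.784%) and 166 lower (1.17%), or 1.96% in either direction, against 28.6% in 2iLAF. Called in both media were 126 genes, which are 45.5% of the basal calls and 2.91% of the 2iLAF calls. Of these, 72 had the same direction (41 higher and 31 lower) and 54 opposite ones (42 higher in 2iLAF and lower in basal medium, 12 the reverse). Across the 15142 genes the Pearson correlation of both differences was 0.02, as a description. In basal medium the medians of the NODAL, streak and epithelial lists were 0.00, 0.00 and 0.07.

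Genes with the same direction in both media were led by metallothioneins. MT1G was at 347 against 10.5 TPM in basal medium and MT1E at 229.8 against 4.09 TPM. NNAT was lower in both, at 14.2 against 73.3 TPM in 2iLAF and listed at 0 against 9.16 TPM in basal medium. ACTG2, a smooth muscle actin, was at 632 against 58.2 TPM in 2iLAF and 7.33 against 1.46 TPM in basal medium. The plot of both media gives these genes beside those of opposite direction. NLRP2, of the NLRP family, passed the rule in basal medium and not in 2iLAF, at 0.21 against 73.1 TPM there and 84.1 against 56.1 TPM in 2iLAF.

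**Figure D4:**
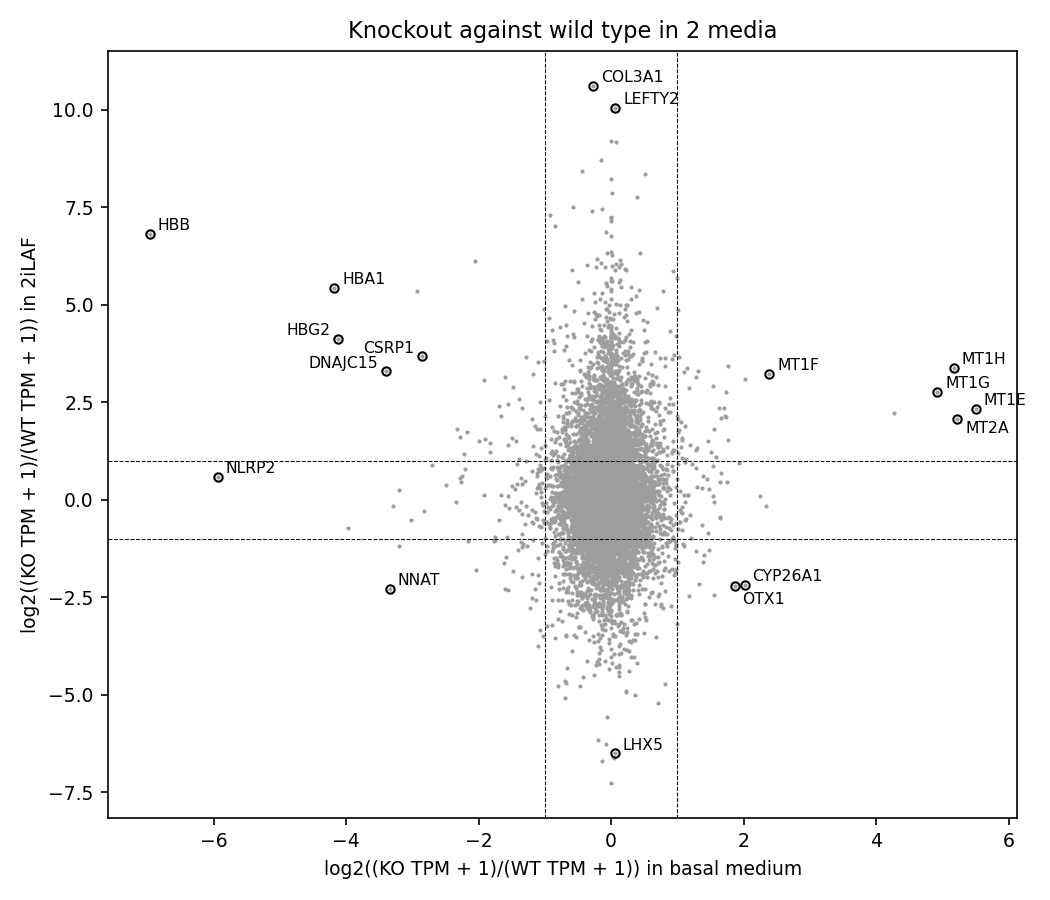
Log2((KO TPM + 1)/(WT TPM + 1)) of the 15142 genes in basal medium (horizontal) and 2iLAF (vertical), with dashed lines at the 2-fold rule and named genes circled. The cloud is tall and narrow, metallothioneins sit at the upper right, and HBB, HBA1, HBG2, DNAJC15 and CSRP1 at the upper left.

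The differences also varied with properties of the transcripts. Among 13558 genes with a protein-coding transcript in GENCODE 29, the lowest of 5 equal groups by GC had a median of 0.33, with 18.4% higher and 4.35% lower. The highest group (59.4% GC and above) had a median of -0.20, with 12.5% higher and 20.5% lower. In basal medium the medians of those groups were -0.04 and -0.10. After centring within 5 such groups, a step chosen after seeing the data, 2360 of these genes were higher and 1360 lower, against 2354 and 1498 before. By chromosome, the 1120 genes of chromosome 19 had a median of -0.25 with 8.04% higher and 18.7% lower, and the 548 genes of chromosome X had a median of 0.44 with 23.5% higher. Zinc finger genes named ZNF and a number, many of which lie on chromosome 19, had 18 of 433 higher and 42 lower (median -0.16). Over all genes compared 17.3% were higher and 11.3% lower. The lower share of these zinc finger genes was thus not above that of all genes, while their higher share was below that of all genes. The part of GC content in the single differences was not tested.

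**Figure D5:**
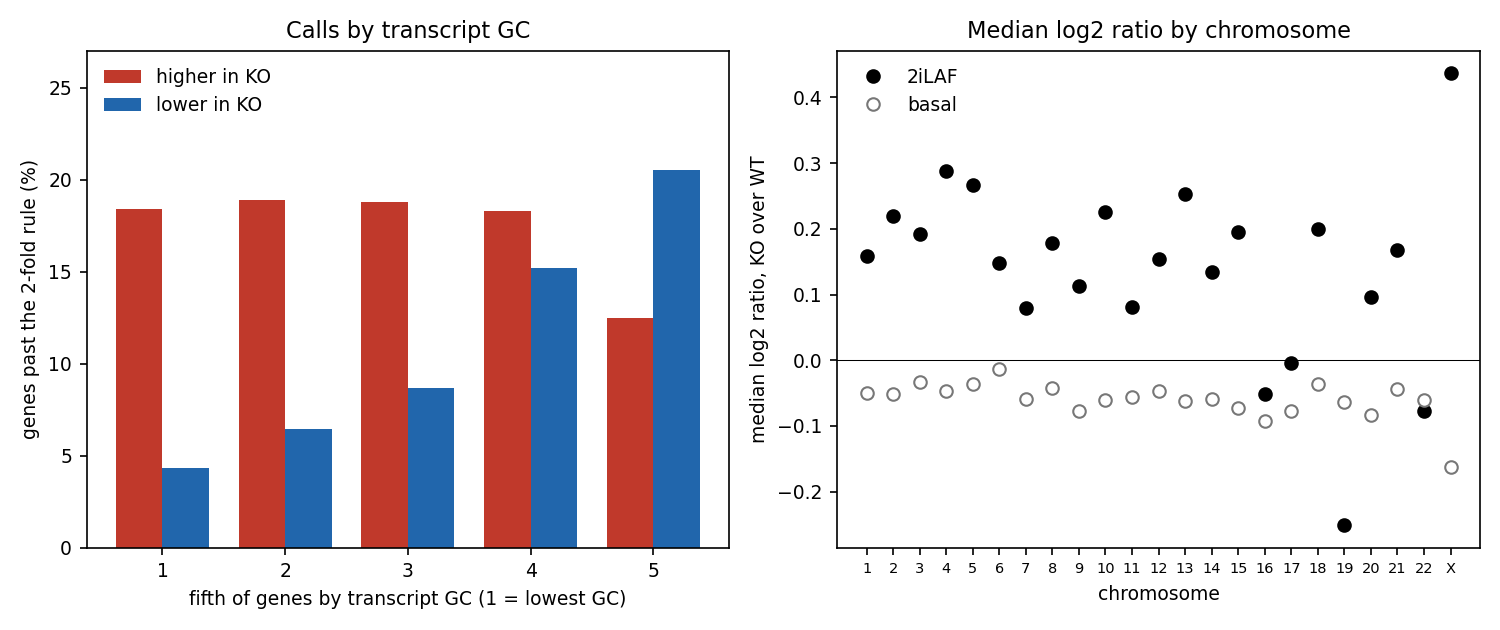
Left, share of genes higher (red) and lower (blue) by the 2-fold rule in each of 5 equal groups of genes by transcript GC. Right, median log2 difference by chromosome in 2iLAF (filled) and basal medium (open). The share of lower genes runs from 4.35% to 20.5% across the 5 groups, and chromosomes 19 and X have the lowest and highest 2iLAF medians.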

How the data were processed

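Gene levels came from 1 table of 26506 gene symbols, in which the authors deposited TPM and FPKM values for each of 5 libraries, per the file headers. Polyadenylated RNA was sequenced after TruSeq stranded library preparation, per the labels' protocols. Trimmomatic 0.39, Bowtie2 2.3.4.1, RSEM 1.2.28 and build hg19 are named in the submitters' processing notes. The annotation and strand setting used with RSEM are not stated here. The table also had 18 empty columns, which were not used. Depth could not be read from it, so no counting interval is given. Deposited FPKM was used as an alternative scale alone.

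Log2 ratios used a pseudocount of 1 TPM, a filter of 1 TPM in either library and a size rule of 2-fold (Python 3.11.15, numpy 2.4.6, pandas 2.3.3, matplotlib 3.10.9). The call rule was tested on simulated data. The comparison, the 56 gene lists and the rule for naming genes were chosen with earlier results of these data known. Named are B3GALT5, genes with the 20 top and 20 bottom ratios among those reaching 10 TPM, the 10 of each among those reaching 100 TPM, and up to 10 genes per list and per direction in both media. Members of the glycosphingolipid, core, naive, primed and NODAL lists could all be named. Promoter letters and chromosomes came from RefSeq (GRCh38.p14), matched by symbol. Transcript GC came from GENCODE 29. Centring within 5 equal groups of transcript GC was chosen after seeing the data. ASNS, CGN, CLDN10, COL13A1, COL9A2, DNAJB9, DPT, ELN, ITGB4, MKI67, OCLN, SNAI1, ZEB1 and EEF1A1 fall outside the rule and were named after their values were seen. Some genes are not reported here.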

Additional observations from a re-analysis of the deposited data

Results flagged for a closer look

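For 54 genes the knockout was above the wild type by the 2-fold rule in 1 medium and below it in the other, and 9 with large differences in both are given here. With 1 library per group the difference between media was not tested. Log2 ratios are on the log2(TPM + 1) scale, and no fold is given where a library is listed at 0.

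The globin genes HBB, HBA1, HBG2 and HBA2 had 2iLAF values of 6.83, 5.42, 4.13 and 5.35 and basal values of -6.97, -4.18, -4.12 and -2.93. Both KO 2iLAF and WT basal held them, while KO basal held 0.13, 0.32, 0.42 and 2.25 TPM. DNAJC15, a mitochondrial co-chaperone, had 3.29 in 2iLAF (93.6 against 8.67 TPM) and -3.40 in basal medium (0.11 against 10.7 TPM). CSRP1, a LIM protein of muscle, had 3.68 in 2iLAF (120.1 against 8.48 TPM) and -2.86 in basal medium (1.34 against 16.0 TPM). PVRIG2P, a pseudogene, had 3.07 in 2iLAF (14.1 against 0.79 TPM) and was listed at 0 in KO basal, with 2.80 TPM in WT basal. In the other direction, CYP26A1 had -2.18 in 2iLAF and 2.01 in basal medium (11.9 against 2.20 TPM). OTX1, a forebrain homeobox gene, had -2.22 in 2iLAF (0.30 against 5.05 TPM) and 1.86 in basal medium (11.8 against 2.51 TPM).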

How the results depend on the processing

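The counts of 2623 higher and 1706 lower genes depend on the pseudocount and the size rule. They were 1416 and 779 with a pseudocount of 5, 4323 and 2992 with a 1.5-fold rule, and 971 and 451 with a 4-fold rule. Within 1.5 times of the counts above were a pseudocount of 0.1 (3077 and 2148), a filter of 5 TPM (1930 and 1187), FPKM (1885 and 1503), median-ratio scaling (2418 and 1909), trimmed-mean scaling (2413 and 1915), leaving out the blood cell lists or the fibroblast and matrix lists, and centring within 5 equal groups of GC. The higher genes made up 60.6% of calls as computed and 55.9% after median-ratio scaling, which shifts values by 0.10 on the log2 scale. No gene or list that was recomputed had its call reversed. Up to 89 genes and 56 lists were recomputed per setting, fewer where lists were left out or GC was missing, and none under the 1.5-fold and 4-fold rules. Among lists with medians near 0, those of DNA methylation, Polycomb and ceramide genes changed sign on rescaling. With a pseudocount of 5, 13 list medians of at least 1 in size dropped below it, and with FPKM 9 did. No paired analysis was possible because each group holds 1 library. The values without a replicate describe these cultures, and low genes are the least certain because depth is unknown.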
